A study of Sus scrofa with 23 samples.

Results

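The comparison set porcine metaphase II (MII) oocytes matured in vitro against MII oocytes matured in vivo, and its members were 2 of the 23 libraries of the series, 1 for each origin. The series followed pig embryos made by in vivo fertilization (IV-D) and by somatic cell nuclear transfer of Duroc (NT-D) or Laiwu (NT-LW) donor cells up to the blastocyst. The in vitro matured oocytes were the recipients of the donor nuclei in both clone groups, so the pair compares the eggs before any nucleus was transferred. Their library carries the NT-D name, the strain Duroc and the method nuclear transfer, although it holds oocytes without donor nuclei. The study's methods instead describe ovaries of hybrid sows from an abattoir, cumulus-oocyte complexes matured in culture, removal of the cumulus cells with hyaluronidase and selection of oocytes with a first polar body. The in vivo matured oocytes were collected from Duroc sows in estrus and carry the strain Duroc and the method in vivo. About 10 oocytes were pooled for a library in that study. Site of maturation, breed, age of the donor, collection and library cannot be told apart between these samples. The 23 libraries hold 1 for each origin, so no value below has a p-value or a replicate error. The study added biological replicates of both oocyte types, which were not analysed here. From replicated libraries, and by a test with adjusted p-values, it reported far fewer differing oocyte genes than the fold rule counts below. For its libraries without replicates the study used another test and rule, whose oocyte result was not compared here.

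A fully grown oocyte is almost silent in transcription, and the mRNAs that it stored while it grew serve meiosis, fertilization and the first cleavages. During maturation stored mRNAs are activated, masked or destroyed, largely through the length of the poly(A) tail. Oocytes matured outside the follicle are known to support development less well than those that mature in it. The embryo takes over transcription in the pig mainly around the 4-cell stage, so that transcripts of 1-cell and 2-cell embryos are still mostly those of the oocyte.

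RNA levels are given for 8603 genes as FPKM, in which the fragments of a gene are divided by its length and by the total of its library. The deposited table is named as one of differentially expressed genes, so shares of all genes are shares within that selection. The values step by whole fragments, which gave a depth of 18209676 fragments for the in vitro and 21337511 for the in vivo matured oocytes, inside the range of 14952784 to 22991067 over the 23 libraries. A count of 0 allows up to 3 fragments, or an FPKM of 0.165 in vitro and 0.141 in vivo on a gene of 1 kb. Intervals given with folds are exact 95% intervals of the ratio of fragments (Clopper-Pearson), and they cover counting error only, since amplified fragments without molecular identifiers are not independent molecules. A gene was counted as higher or lower when its log2(FPKM + 1) was more than 1 apart and at least 1 of the oocyte libraries had an FPKM of 1. Differences on this scale understate the change of low genes, and folds are ratios of FPKM without the added 1.

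Of 6771 genes with an FPKM of at least 1 in either oocyte library, 1005 (14.8%) passed this rule. In vitro matured oocytes had 903 genes higher (13.3%) and 102 lower (1.51%) than in vivo matured oocytes. The median difference of all 6771 genes was 0.25, with the middle 50% between -0.19 and 0.71. An FPKM of at least 1 was reached by 6709 genes in vitro and 6163 in vivo, and 608 reached it only in vitro against 62 only in vivo. The preponderance of higher genes depended on scaling. With the 2 libraries brought to a median ratio of 1 the numbers were 592 higher and 229 lower, and with the trimmed mean of log ratios they were 466 higher and 368 lower. All 102 lower genes stayed lower under both, and all 592 and 466 higher genes were among the 903. Pearson's r between the libraries was 0.951 across genes, which are not independent replicates.

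**Figure D1:**
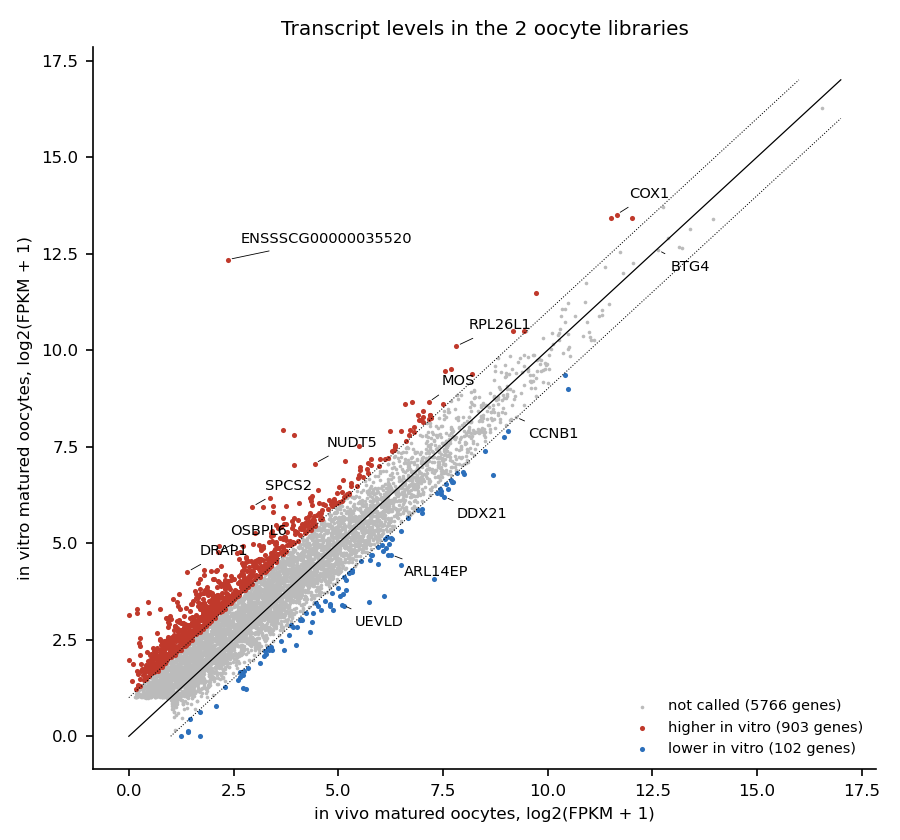
Level of each tested gene in in vivo matured oocytes (horizontal) and in vitro matured oocytes (vertical), both as log2(FPKM + 1), 1 point for each gene. Red points are the 903 genes higher in vitro, blue points the 102 lower ones, the solid line marks equal levels and the dotted lines a difference of 1. ENSSSCG00000035520 lies furthest from the line of equal levels.

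The largest difference of the table belonged to a short gene without a symbol. ENSSSCG00000035520, with a recovered length of 225 bases, had an FPKM of 5200 in vitro (21305 fragments) and 4.17 in vivo (20 fragments), a 1248-fold difference (interval 808 to 2044). In 1-cell embryos it stood at 7338 in NT-D and 3182 in NT-LW against 28.9 in IV-D, and in 2-cell embryos at 6213 and 6508 against 18.2. The 5 libraries made from in vitro matured oocytes up to the 2-cell stage and the 3 in vivo ones thus did not overlap. This gene was singled out after its values were seen.

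Of genes that carry a symbol and reach an FPKM of 10 in the higher library, IGFBP7 differed most. IGFBP7, which codes for a secreted protein that binds insulin-like growth factors (ENSSSCG00000008913, chromosome 8, 56283089 to 56357822), had an FPKM of 10.1 in vitro and 0.374 in vivo, with 369 and 16 fragments. SPCS2, a subunit of the signal peptidase of the endoplasmic reticulum, stood at 60.6 in vitro and 6.71 in vivo, 9.03-fold higher (interval 8.13 to 10.1). RAB6A, a small GTPase of Golgi traffic, stood at 15.9 and 2.26. UBE2J2, a ubiquitin-conjugating enzyme of the endoplasmic reticulum, stood at 18.9 and 2.47, and UBE2T, which acts in DNA repair, at 11.8 and 1.29. In each of these genes the in vivo library held the low value.

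DRAP1 codes for a corepressor of transcription and is one of the genes that the study singled out. It lies on chromosome 2 at 6409623 to 6411935 (Sscrofa11.1) and had an FPKM of 18.1 in vitro and 1.64 in vivo, with 397 and 42 fragments. The interval of its fold was 8.05 to 15.6. TET1, which the study also named, was not analysed here.

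OSBPL6 and NUDT5 came next. OSBPL6, an oxysterol-binding protein (chromosome 15, 83872747 to 84101302), stood at 26.4 in vitro and 3.35 in vivo, 7.86-fold higher (6.85 to 9.06). NUDT5, which hydrolyses ADP-ribose and related nucleotides, stood at 133 and 20.6. HINT1, a nucleotide hydrolase, stood at 10.7 and 1.07. SLC1A5, a carrier of glutamine and other neutral amino acids, stood at 37.3 and 7.08. RPL26L1, a paralog of a ribosomal protein, was the most abundant gene of this group, at 1101 against 225, and reads of its near-identical relative could have been split between them. RSPH3, CNKSR1, PLAGL2 and TPD52L2 completed the 15 largest, with differences of 2.39, 2.35, 2.33 and 2.30 on the log2(FPKM + 1) scale.

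Lower genes differed by less. The largest difference with a symbol and an FPKM of at least 10 was that of DENND2C, which codes for a protein with a DENN domain, at 9.37 in vitro and 34.3 in vivo. UEVLD followed at 9.57 and 33.3, 3.48-fold lower in vitro (interval 3.23 to 3.75). NAPEPLD, a phospholipase that makes N-acylethanolamines, stood at 5.52 and 19.0. CWC22, a splicing factor, stood at 21.0 in vitro and 60.6 in vivo, and RBM44, a germ cell RNA-binding protein, at 6.76 and 19.7. DDX21, an RNA helicase of the nucleolus, stood at 72.7 and 184, and TOP2A, the topoisomerase that untangles chromosomes, at 12.8 and 35.4. The others of the 15 were RASSF9, C5orf22, ARL14EP, ANKS4B, PPP4R3A, POC1B, FRMD7 and WDR48, with differences between -1.61 and -1.28.

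Several of the most abundant transcripts differed little. ENSSSCG00000000296, a gene of 462 bases without a symbol, led both libraries at 78777 in vitro and 95287 in vivo. BTG4, the adaptor that brings the deadenylase to maternal mRNAs, stood at 6183 in vitro and 6335 in vivo, and AKIRIN2, a nuclear protein that helps import proteasomes, at 7615 and 7487. UBB, a ubiquitin gene, stood at 13314 and 6946, a difference of 0.94. Among the transcripts that were both abundant and different were those of the mitochondrial genome, given further on.

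Genes that mark the oocyte were abundant in both libraries, and several of its secreted and zona genes were higher in vitro. Of 8 members tested in the list of secreted factors and zona proteins 5 were higher and 0 lower, with a median difference of 1.31 beside 0.25 for all genes. BMP15, the growth factor with which the oocyte acts on its cumulus cells, had an FPKM of 121 in vitro and 50.7 in vivo, 2.38-fold higher (2.23 to 2.54). GDF9, its partner, stood at 39.5 and 30.8, which is 1.28-fold (1.22 to 1.34) and under the rule. ZP2 and ZP3, proteins of the zona pellucida, stood at 340 against 129 and at 47.9 against 15.5. ZP4, the other zona gene measured, stood at 337 and 199 and was not counted. CD81, a membrane protein of sperm-egg fusion, stood at 8.99 and 1.56, and IZUMO1R, the receptor for sperm, at 10.6 and 3.06. OOSP2, an oocyte-secreted protein and the most abundant of the list, went the other way without passing, at 6454 in vitro and 9461 in vivo.

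Genes that store and readenylate mRNA in the cytoplasm followed. In the list of cytoplasmic polyadenylation and storage, 11 of 36 members were higher and 1 was lower, with a median of 0.71. Under the trimmed mean of log ratios the counts were 6 higher and 1 lower. CPEB1, which binds the cytoplasmic polyadenylation element and was named after its values were seen, stood at 16.9 in vitro and 6.59 in vivo, 2.57-fold higher (2.28 to 2.90). PABPN1L, an oocyte poly(A)-binding protein, stood at 82.0 and 22.0. YBX2, which packages stored mRNA in germ cells, stood at 3.08 and 0.591, and its relative YBX3 at 31.9 and 10.4. PAPOLG, a poly(A) polymerase, was the lower member, at 22.7 in vitro and 53.4 in vivo. In the list of mRNA decay 6 of 49 were higher (12.2%, beside 13.3% of all tested genes) and 1 lower, with a median of 0.27, and the lower one was PARN, a deadenylase, at 18.0 and 39.0. Under the trimmed mean this list turned to 1 higher and 2 lower.

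The element that CPEB1 binds lies close to the AAUAAA signal for cleavage and polyadenylation, and both can be read at the end of the transcript. The 3′ ends of 3 genes that were higher in vitro and of 3 abundant genes that were not counted are printed to show that both kinds held these letters. Each is 30 bases of the RefSeq transcript in the DNA of Sscrofa11.1, 5′ to 3′. The capitals mark TTTTAT or TTTTAAT, taken as the element, and the letters AATAAA, whose use as a signal was not tested. In TPX2 the element lies 74 bases from the end of the transcript, and in WEE2 it follows AATAAA.
AURKB: ctgccttctccctcctTTTTATttAATAAA
EIF4G2: tgaTTTTATatacttgtatctatcAATAAA
PSMB1: ttggattgatttgTTTTATtaaaaAATAAA
TPX2: ccccctttcctaTTTTAATcagaaAATAAA
EIF3J: aatgTTTTATaaagcaactaatttAATAAA
WEE2: aacagaatgtctgtaAATAAAggtTTTTAT
They lie at chr12:53410850-53410879 on the minus strand, chr2:48678612-48678641 on the plus strand, chr1:39990-40019 on the plus strand, chr17:35484717-35484746 on the plus strand, chr1:126998635-126998664 on the minus strand and chr18:8171155-8171184 on the minus strand, all in 3′ UTRs. AURKB, the Aurora kinase of chromosome segregation, stood at 54.1 in vitro and 22.2 in vivo, EIF4G2, a translation initiation factor, at 178 and 80.2, and PSMB1, a proteasome subunit, at 295 and 142. TPX2, a spindle assembly factor, stood at 243 and 339, EIF3J, an initiation factor, at 202 and 201, and WEE2, the kinase that holds meiosis in check, at 438 and 417.

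Over all genes the element was about as common in each set. The last 100 bases of the transcript held TTTTAT or TTTTAAT, searched on the transcript strand only, in 23.3% of 4957 tested genes with a 3′ UTR of at least 100 bases in RefSeq. The share was 24.7% among 657 higher and 22.4% among 67 lower genes. AATAAA was found in 63.8% of all, 65.8% of the higher and 62.7% of the lower ones. The median difference was 0.26 with the element and 0.25 without it. A match of these letters is a description and shows no binding.

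Among the regulators of meiosis, 6 of 26 members of the list of meiotic kinases and arrest were higher (23.1%) and 0 lower. The median was 0.41. This list and those that follow stand beside 13.3% higher and 1.51% lower of all tested genes, with a median of 0.25. Under the trimmed mean of log ratios 4 of the meiotic list were higher and 2 lower. After the centring on GC content given further on, 4 were higher and 0 lower, with a median of 0.22 beside 0.26. MOS, the kinase that holds the mature oocyte at metaphase II, stood at 402 in vitro and 142 in vivo, 2.83-fold higher (2.74 to 2.92). PLK1 stood at 27.1 and 7.88. UBE2C and UBE2S, the ubiquitin-conjugating enzymes of the anaphase-promoting complex, stood at 731 against 207 and at 237 against 90.1. Cyclin B did not follow. CCNB1 stood at 307 in vitro and 602 in vivo, a difference of -0.97 that just missed the rule, and CCNB2 at 112 and 181. The list of spindle and kinetochore genes had the lowest median of all 35 lists, -0.29, with 4 of 60 higher (6.67%) and 1 lower (1.67%). Its abundant members KIF20B, MAD2L1 and TPX2 had 213 against 364, 266 against 382 and 243 against 339, and DLGAP5, a spindle assembly factor, was the lower one at 115 against 253. With median-ratio scaling 2 were higher and 4 lower. After the centring on GC content 4 spindle genes were higher and 0 lower, with DLGAP5 at -0.73. The median of the spindle list was then -0.06 beside 0.26 for all genes with a GC value. It was no longer the lowest, as sterol synthesis had -0.15.

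Of the maternal effect genes, whose products the early embryo needs from its mother, 4 of 18 were higher (22.2%) and 0 lower. Their median was 0.64. ZAR1 and ZAR1L, which bind stored mRNA, stood at 29.7 against 7.59 and at 237 against 74.6. TCL1B stood at 20.8 and 6.93. UHRF1, the fourth, guides the maintenance of DNA methylation and is in the list of DNA methylation and demethylation too, in which 3 of 10 were higher and 0 lower. DNMT3B, a de novo methyltransferase, stood at 8.33 in vitro and 3.17 in vivo. DNMT1, the maintenance methyltransferase and one of the most abundant transcripts, stood at 4097 and 3581, a difference of 0.19. The third higher member was DRAP1, listed there because the study named it and not for a part in methylation. In the list of histone modifiers 5 of 37 were higher (13.5%, beside 13.3% of all tested genes), among them SETD1A at 7.01 against 2.17 and KDM1A, a demethylase, at 17.7 against 7.95.

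Receptors of the oocyte were measured next. Of 16 gap junction and membrane receptor genes 4 were higher (25%, beside 13.3% of all tested genes) and 0 lower, with a median of 0.87. Under the trimmed mean of log ratios 1 was higher and 0 lower. After the centring on GC content 2 were higher and 0 lower, with a median of 0.68 beside 0.26. ACVR1, a receptor for bone morphogenetic proteins, stood at 6.05 in vitro and 0.917 in vivo, KIT, the receptor for the Kit ligand of the granulosa cells, at 2.75 and 0.708. GHR, the growth hormone receptor and the most abundant of them, stood at 357 and 195. In the unfolded protein response list 5 of 23 were higher (21.7%), 0 lower, with a median of 0.49. They were HYOU1 at 3.57 against 0.355, PDIA6 at 15.5 against 4.43, PDIA4 at 36.6 against 14.6, CRELD2 at 10.6 against 3.89 and HSP90B1 at 15.4 against 6.46, all folding factors of the endoplasmic reticulum. Under the trimmed mean 2 of this list were higher and 0 lower, and after the centring on GC content 7 and 0. Heat shock proteins, chaperones of the cytosol and of mitochondria, gave 0 higher and 0 lower of 33, with a median of -0.07. HSPE1 stood at 1682 and 1373, and HSP90AA1 at 342 and 183.

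The respiratory chain is coded by mitochondrial and nuclear DNA. The 13 protein genes of mitochondrial DNA had 5 higher and 1 lower, with a median of 0.99 (10 and 0 with a median of 1.21 after the centring on GC content given further on), whereas the 57 nuclear genes of the respiratory chain had 5 higher and 1 lower with a median of 0.05. Of glycolysis and the pentose phosphate pathway 4 of 18 were higher (22.2%, beside 13.3% of all tested genes) and 0 lower. Of its 17 members with a GC value, 3 were higher before the centring on GC content and 2 after it. Their centred median was 0.16 beside 0.26 for all genes with a GC value. GPI stood at 6.57 against 1.45 and LDHB at 3.52 against 0.709. Of fatty acid oxidation and lipid droplets 2 of 20 were higher (10%), 0 lower, with a median of -0.03. In the nuclear respiratory list COX7A2L, which helps assemble supercomplexes, stood at 391 in vitro and 95.2 in vivo, and ATP5ME, a subunit of ATP synthase, at 57.8 and 127.

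**Figure D2:**
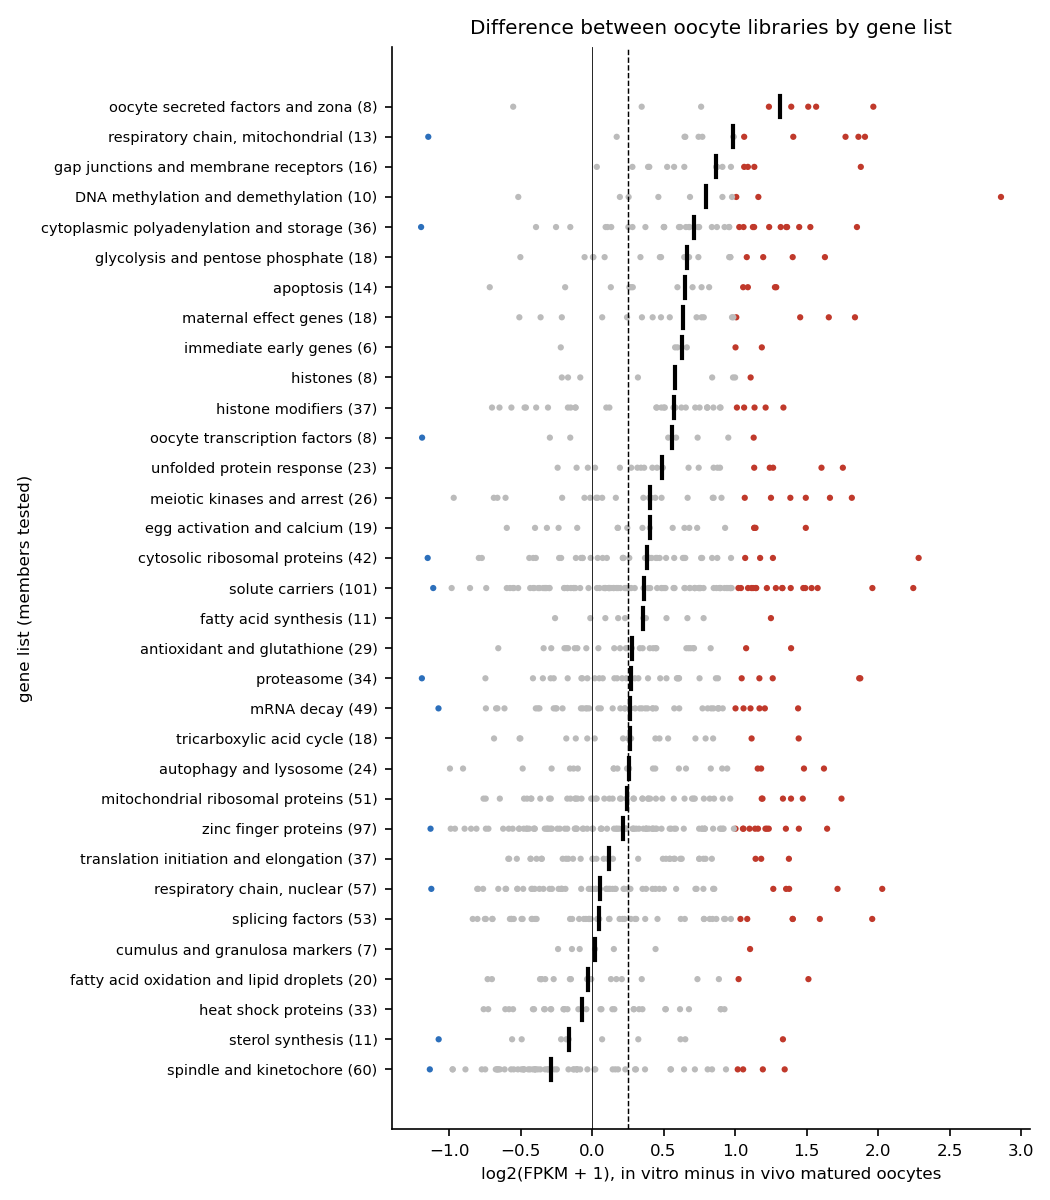
Difference of log2(FPKM + 1), in vitro minus in vivo matured oocytes, for each tested member of the gene lists with at least 6 tested members. Points are genes, red if higher in vitro, blue if lower, grey if neither, black bars are list medians and the dashed line is the median of 0.25 of all tested genes. Secreted factors and zona genes lie furthest to the right and spindle genes furthest to the left.

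The remaining lists can be read against the background of 13.3% higher and 1.51% lower genes. Solute carriers had 18 of 101 higher and 1 lower, zinc finger proteins 12 of 97 and 1, splicing factors 6 of 53 and 0, mitochondrial ribosomal proteins 6 of 51 and 0, and proteasome subunits 5 of 34 and 1. Cytosolic ribosomal proteins had 4 of 42 and 1, apoptosis 4 of 14 and 0, autophagy and lysosome 4 of 24 and 0, egg activation and calcium 4 of 19 and 0. Translation factors had 3 of 37 and 0, antioxidant and glutathione genes 2 of 29 and 0, the tricarboxylic acid cycle 2 of 18 and 0, immediate early genes 2 of 6 and 0. Sterol synthesis had 1 of 11 and 1, fatty acid synthesis 1 of 11 and 0, histones 1 of 8 and 0. Oocyte transcription factors had 1 of 8 higher and 1 lower, the latter being TBPL2, the TATA-binding protein of the oocyte, at 5.20 in vitro and 13.1 in vivo.

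Of the markers of other cells, FST and EPCAM were higher in vitro and 0 were lower. Of 35 cumulus and granulosa markers listed, 11 were measured and 7 could be tested, of which 1 was higher and 0 lower. Nothing can be said of the markers that were not measured. HAS2, the hyaluronan synthase of the expanding cumulus, had an FPKM of 0 in vitro and 0.0843 in vivo, and EREG and NR5A2 were at 0 in both. The higher member was FST, at 15.1 and 6.51, while RGS2 and VCAN stood at 319 against 352 and at 101 against 120. The summed FPKM of the measured cumulus and granulosa markers was 478 in vitro and 513 in vivo, most of it RGS2 and VCAN. Of 26 fibroblast markers 13 were measured and 2 could be tested, and of 25 markers of blood and oviduct cells 8 and 2. Fibroblast markers summed to 5.22 and 6.02, with COL1A1 at 0 and 0.0966 and VIM at 0.0264 and 0.0564. Markers of blood and oviduct cells summed to 32.4 and 21.8, nearly all of it EPCAM, at 14.7 against 5.76, and CDH1, with HBB at 0.123 and 0.0527 and KRT8 at 0 and 0.271.

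The difference moved with the base composition of the transcript. GC content was known for 5495 of the tested genes, from the RefSeq transcripts. Of 5 equal bins, in the one with the lowest GC content (31.9% to 40.6%) 3.18% were higher and 2.37% lower in vitro, with a median difference of -0.08. In the bin with the highest (54.4% to 72.6%) 31.2% were higher and 0.182% lower, with a median of 0.73. Higher genes had a median GC content of 53.4% and all tested genes one of 46.1%. Lower genes, of which 68.6% had a value, had 42.3%. The part of GC content in the difference was not tested. The difference was also centred on the median of genes of like GC content, an alternative chosen after seeing the data. The median of all genes with a GC value, 0.26, was then added back, so the general excess of higher genes was kept. On that scale 610 genes were higher and 51 lower, against 739 and 70 of the same genes before. Of them, 465 and 30 were shared.

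Gene by gene the change was uneven. OSBPL6, NUDT5, DRAP1, SPCS2, BMP15, ZP2, MOS, PLK1, ZAR1, ZAR1L, CPEB1, HYOU1 and COX1 stayed higher, and UEVLD, CWC22, TOP2A and DDX21 stayed lower after centring. ZP3, AURKB, UBE2S, YBX2, TCL1B, DNMT3B, UHRF1 and PAPOLG no longer passed. Calls close to the limit rest on the median of 0.26 that was added back. Examples are MOS at 1.15, BMP15 at 1.18, CPEB1 at 1.07, ZAR1 at 1.25 and PAPOLG at -0.79. Of the mRNA control list 9 members were then higher, with a median of 0.72 beside 0.26 for all genes with a GC value. Of the histone modifiers 0 remained, with a median of 0.32. Other early libraries differed in this property too. The median deviation from the mean of 8 early libraries ran from -0.07 in the lowest bin to 0.76 in the highest in the NT-D 1-cell library, from -0.11 to -0.89 in the IV-D 2-cell library, from 0.12 to -0.50 in the in vivo and from 0.03 to 0.21 in the in vitro matured oocytes.

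**Figure D3:**
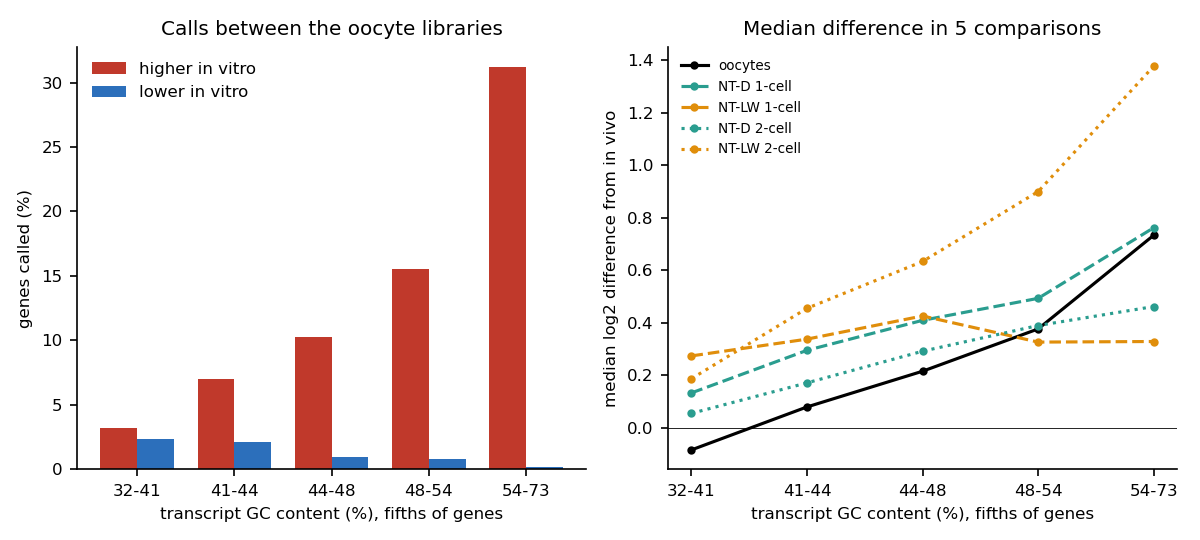
Left, percent of genes counted as higher (red) or lower (blue) in in vitro matured oocytes in 5 bins of genes by transcript GC content. Right, median difference of log2(FPKM + 1) from the in vivo library of the same stage in the same bins, for oocytes and for NT-D and NT-LW embryos. In oocytes the share of higher genes goes from 3.18% to 31.2% and the median from -0.08 to 0.73.

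Gene length and level went with smaller shifts of the median. Over 5 bins of gene length the median difference lay between 0.19 and 0.30, while 231 of 1355 genes were higher in the shortest bin and 120 of 1351 in the longest. Over 5 bins of mean level the median went from 0.48 in the lowest to -0.09 in the highest, and 6.13% of the most abundant bin were higher and 2.73% lower.

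Mitochondrial mRNAs were both abundant and different. Fragments of the 13 protein genes of mitochondrial DNA made up 5.05% of the in vitro and 1.87% of the in vivo library, the latter being the lowest share of all 23 libraries, in which it reached 26.4%. COX1 had an FPKM of 11676 in vitro and 3210 in vivo (3.64-fold, interval 3.61 to 3.66), ATP6 10885 and 2899, COX3 10885 and 4104, CYTB 2865 and 838, and ND5 1436 and 686. Subunits that did not pass, such as COX2 at 4518 and 2647, were higher as well, and 12 of the 13 differences were above 0. ATP8, which overlaps ATP6 on the genome so that shared reads are hard to assign, was lower, at 9.42 and 22.1 (35 and 96 fragments).

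Genes with the lengths of the mitochondrial ribosomal RNAs went the other way. ENSSSCG00000018063, whose recovered length of 1571 bases equals that of the large ribosomal RNA in RefSeq and is shared by 3 genes of the table, stood at 15.8 in vitro and 156 in vivo, 9.85-fold lower in vitro (8.94 to 10.9). ENSSSCG00000018061, whose 960 bases equal the small one and are shared by 2 genes, stood at 11.4 and 67.3, 5.91-fold lower (5.09 to 6.89). These lengths alone do not name the genes, which have no symbol here and were singled out after their values were seen.

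In embryos most mitochondrial mRNAs stood in the opposite order. In 1-cell embryos COX1 stood at 9272 in NT-D and 6937 in NT-LW against 12108 in IV-D, and in 2-cell embryos at 11987 and 7941 against 15032. Of the 13 genes 1 was above IV-D in NT-D 1-cell embryos and 1 in NT-LW, with medians of -0.77 and -0.96, and 2 and 0 were above it at the 2-cell stage. In vivo matured oocytes were the lowest of the 8 early libraries for COX1, COX3, ATP6 and CYTB, while the in vitro matured oocytes lay among the embryos.

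**Figure D4:**
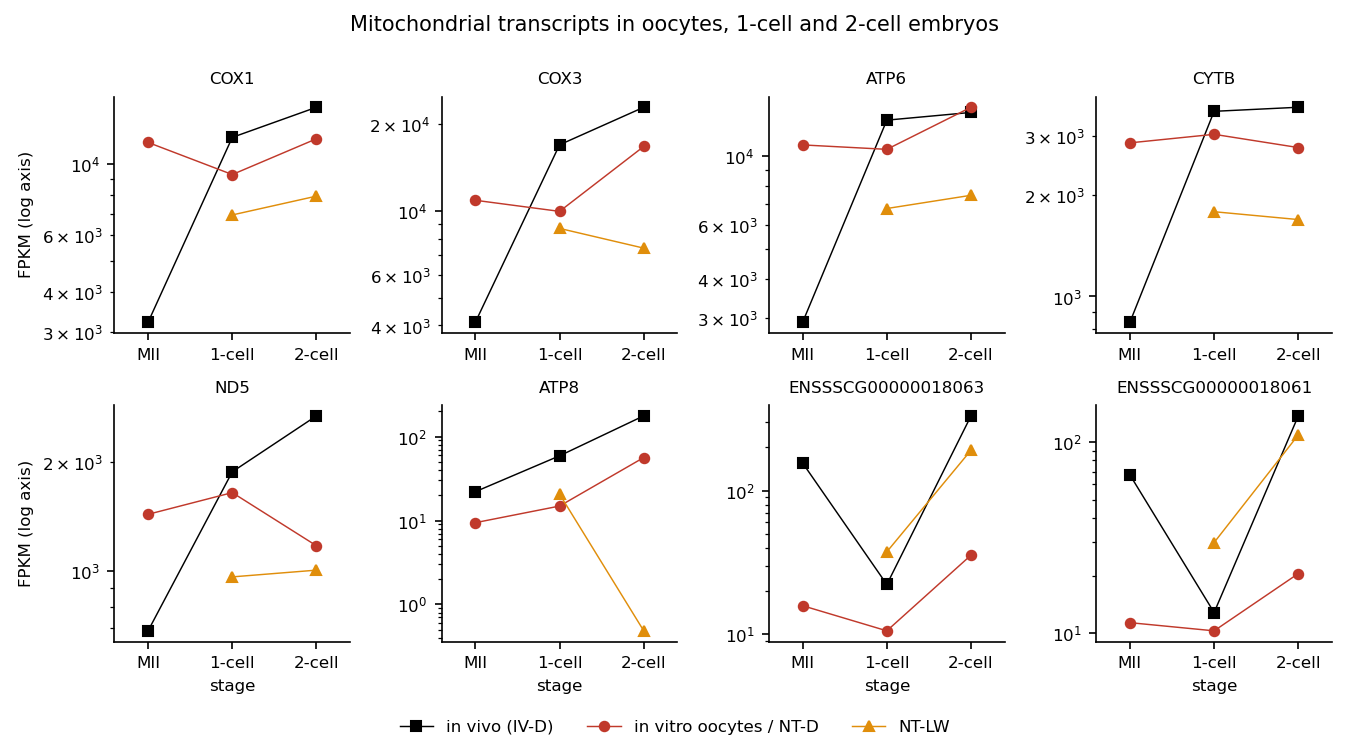
FPKM (log axis, with its own range in each panel) of 6 mitochondrial protein genes and of 2 genes with the lengths of mitochondrial ribosomal RNAs, in MII oocytes, 1-cell and 2-cell embryos. Squares are in vivo libraries, red circles the in vitro matured oocytes and NT-D embryos, triangles NT-LW embryos, 1 library for each point. COX1 goes from 3210 to 12108 between in vivo oocytes and 1-cell embryos and from 11676 to 9272 on the NT-D side.

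Whether a difference of the oocytes was still there after fertilization or nuclear transfer was read from the 1-cell and 2-cell libraries. These share none with the oocyte pair, but both clone groups are set against the same IV-D library. Of the 903 genes higher in in vitro matured oocytes, 299 (33.1%) were higher in NT-D than in IV-D 1-cell embryos, where 18.2% of all 6771 genes were. In NT-LW 1-cell embryos 141 (15.6%) were higher, where 20.9% of all genes were. At the 2-cell stage 121 (13.4%) were higher in NT-D, beside 5.88% of all genes, and 638 (70.7%) in NT-LW, beside 34.1%. The NT-LW 1-cell library was thus the one of the 4 in which the share lay under the background. The 4 comparisons also differed in how far the difference from IV-D went with GC content. Between the bins of lowest and highest GC content its median changed by 1.19 in NT-LW 2-cell and 0.63 in NT-D 1-cell embryos. In NT-D 2-cell embryos it changed by 0.41 and in NT-LW 1-cell embryos by 0.05. The part of GC content in the shares was not tested.

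Fewer genes were higher in all. Both clone groups were higher at the 1-cell stage for 125 of the 903 genes (13.8%), beside 11.3% of all tested genes, and at both stages for 32 (3.54%), beside 1.60%. The numbers moved with the setting, and with median-ratio scaling 59 were higher in both groups at the 1-cell stage. Of the 102 lower genes 9 were lower in NT-D 1-cell embryos (8.82%, beside 3.34% of all genes) and 6 in NT-LW (5.88%, beside 4.03%). At the 2-cell stage 7 were lower in NT-D (6.86%, beside 1.31%) and 9 in NT-LW (8.82%, beside 3.03%). Lower in both groups were 5 at the 1-cell stage (4.90%, beside 1.65%), and 2 at both stages (1.96%, beside 0.222%). In the opposite direction, 52 of the 102 were higher in NT-LW 1-cell embryos, beside 20.9% of all genes, and 14 in NT-D, beside 18.2%. Of the 903 higher genes 76 were lower in NT-LW 1-cell embryos, beside 4.03% of all genes, and 24 in NT-D, beside 3.34%.

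OSBPL6 was steady. It stood at 3.35, 2.54 and 1.89 in in vivo oocytes, 1-cell and 2-cell embryos, and at 26.4, 31.0 and 26.2 in in vitro matured oocytes and NT-D embryos of the same stages, with 37.9 and 36.9 in NT-LW embryos. The lowest library of in vitro origin was above the highest in vivo one. The same held for FSD2, which codes for a protein of muscle cells, at 2.05, 1.56 and 2.68 against 11.9, 13.5 and 10.5, with 10.8 and 12.2 in NT-LW. It also held for MRAP2, an accessory protein of melanocortin receptors (chromosome 1, 53248311 to 53318111), at 0.202, 0.208 and 0.376 against 4.85, 5.33 and 4.91, with 8.34 and 3.34 in NT-LW. MRAP2 had 15 fragments in in vivo and 307 in in vitro matured oocytes. All 3 also stayed higher in oocytes after centring on GC content.

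Such separation was found in other genes of the oocyte's work. BMP15 stood at 50.7, 55.1 and 52.0 in vivo and at 121, 209 and 142 in in vitro matured oocytes and NT-D embryos, with 306 and 521 in NT-LW embryos. NUDT5 stood at 20.6, 55.3 and 21.1 in vivo and between 85.5 and 133 in the other 5 libraries, a gap that at the 1-cell stage was under the fold rule. SGF29, a subunit of histone acetyltransferase complexes, stood at 118, 94.2 and 48.6 in vivo and at 320, 226 and 106 in in vitro matured oocytes and NT-D embryos, so that its 2-cell value lay within the in vivo range. In all, the 5 libraries lay above the 3 for 137 of the 903 higher genes (15.2%), beside 8.60% of all tested genes, and below for 9 of the 102 lower ones, beside 1.74%. Both sides include the oocyte libraries by which these genes were chosen, which favours these shares, so they are a description only.

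Only SLC25A31 and ATP8 were lower in all comparisons of both stages. SLC25A31, the ADP/ATP carrier of germ cells (chromosome 8, 97095503 to 97120940), stood at 208, 145 and 165 in vivo and at 95.8, 59.1 and 78.1 in in vitro matured oocytes and NT-D embryos, with 62.4 and 62.5 in NT-LW. The highest of these 5 was below the lowest in vivo value. After centring on GC content neither SLC25A31 (-0.83) nor ATP8 (-0.74) passed the rule in oocytes. Both values include the median of 0.26 that was added back, and both calls rest on it. GPAT3, an acyltransferase of triglyceride synthesis, was lower in oocytes (0.722 against 3.24) and in both 1-cell clone libraries (1.30 and 1.65 against 4.53) but not at the 2-cell stage, where IV-D stood at 0.840.

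Other leading genes did not keep their order. SPCS2 stood at 6.71 in in vivo oocytes and at 79.7 and 74.3 in IV-D 1-cell and 2-cell embryos, above NT-D (22.7 and 40.1) and NT-LW (33.2 and 25.4). RPL26L1 went from 225 in in vivo oocytes to 1615 in IV-D 1-cell embryos, above 427 in NT-D and 573 in NT-LW. RAB6A went from 2.26 to 20.5, above 5.04 and 4.61. Among the lower genes, UEVLD fell from 33.3 in in vivo oocytes to 5.26 in IV-D 1-cell embryos, and ANKS4B from 71.4 to 5.80, below 31.2 in NT-D and 44.6 in NT-LW. WDR48 stood at 66.5 in in vivo oocytes, and in 1-cell embryos IV-D was below 25.9 in NT-D and 85.5 in NT-LW. In these 6 genes the in vivo side moved most between oocyte and 1-cell embryo.

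The in vivo matured oocytes were often at the edge of the early libraries. They were the lowest of the 8 libraries up to the 2-cell stage for 348 of the 903 higher genes, beside 1015 of all 6771, and the in vitro matured oocytes were the highest for 120, beside 403. Of the 102 lower genes, 62 (beside 580 of all) had their highest value in in vivo matured oocytes and 18 (beside 224) their lowest in in vitro matured ones. The choice of the genes by these 2 libraries favours both, so these shares describe the calls and test nothing.

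**Figure D5:**
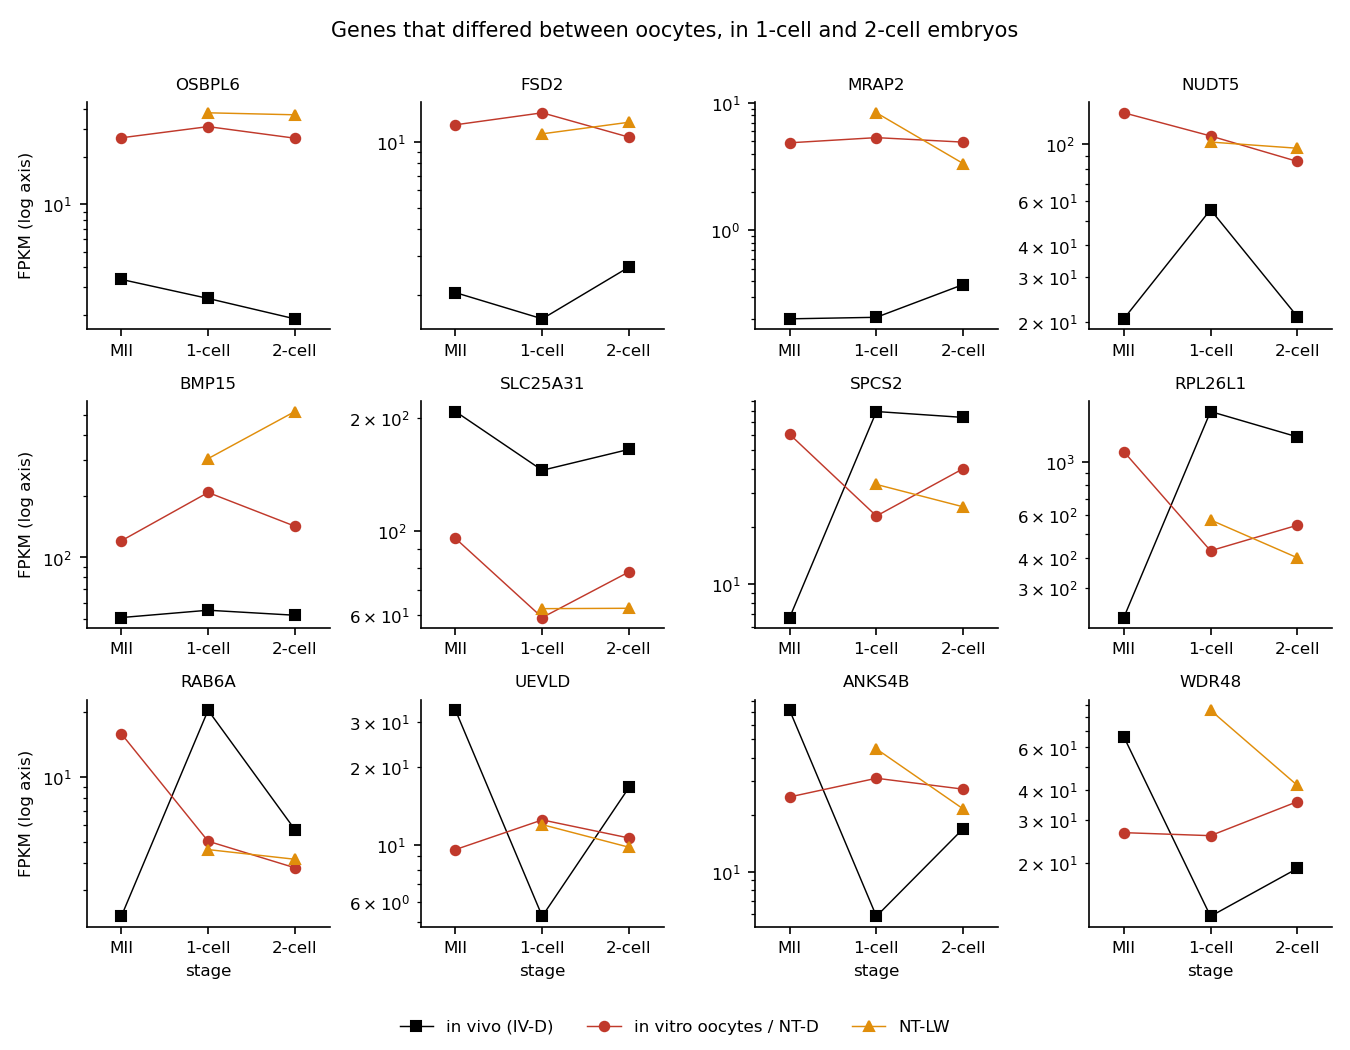
FPKM (log axis, with its own range in each panel) of 12 genes that differed between the oocyte libraries, in MII oocytes, 1-cell and 2-cell embryos, 1 library for each point. Squares are in vivo libraries, red circles the in vitro matured oocytes and NT-D embryos, triangles NT-LW embryos. In OSBPL6, FSD2, MRAP2, NUDT5, BMP15 and SLC25A31 the sides do not overlap, and in SPCS2, RPL26L1, RAB6A, UEVLD, ANKS4B and WDR48 the in vivo value crosses to the other side at the 1-cell stage.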

How the data were processed

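Per the labels and the study's methods, the authors made cDNA from pooled oocytes with SMART-Seq v4, which primes on poly(A) tails, sequenced paired-end libraries, aligned reads to Sscrofa11.1 with HISAT2 2.0.4, counted them with HTSeq 0.9.1 over Ensembl genes and deposited FPKM for 8603 genes. The name of the deposited table calls its genes differentially expressed, and how they were chosen is not given in the sources used here, so every share of all genes is a share within such a selection. Whether HTSeq used strand is not given either. The added oocyte replicates of the study were not analysed here. Each FPKM value is a whole number of fragments over gene length and depth, and all 191716 values above 0 came out whole within 0.01 fragments. The recovery gave the right fragments for 100% of 8602 genes tested on simulated data. Since the values are normalized and each origin has 1 library, no test was run. In simulated data of the oocyte comparison with 200 of 8603 genes changed 4-fold, the fold rule called 94.9% of the changed genes that reached the minimum FPKM and 0.0155% of the others, with counting error alone.

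Symbols came from a table pairing 7371 of the identifiers, and positions, GC content and 3′ ends from the RefSeq annotation of the same build, for 6878 symbols. Gene lists were written from general knowledge. The comparison, the lists and the genes were chosen with earlier results of these data known. Named genes are the 15 with a symbol and the largest difference in each direction with an FPKM of at least 10, the up to 6 most changed and 6 most abundant members of each list, a set of oocyte, follicle and fibroblast genes, those called the same way in both clone groups at the 1-cell stage (up to 10 each way), and the 10 most abundant. Genes named for both stages, ENSSSCG00000035520, the genes of ribosomal RNA length and CPEB1 were added after their values were seen. Alternatives were the pseudocount, the minimum FPKM, 3 scalings, the counting interval, a larger difference, the 2-cell stage and centring on GC content. Python 3.11.15 was used with numpy 2.4.6, pandas 2.3.3 and scipy 1.17.1. A withheld item is not reported here.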

Additional observations from a re-analysis of the deposited data

Results flagged for a closer look

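ENSSSCG00000035520, a gene without a symbol that is in no gene list, was looked at again because of its values outside the oocyte pair. Its lowest FPKM in the 15 libraries of in vitro matured oocyte origin was 3182, and its highest in the 8 in vivo libraries was 55.9, so the sides did not overlap at any stage. It was the only gene of the table with all 15 above all 8, and 1 gene, ENSSSCG00000039306, had all 15 below all 8.

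COX1, SPCS2, RPL26L1 and RAB6A differed in opposite directions in oocytes and in both 1-cell clone groups, and the difference between the stages was not tested. On the log2(FPKM + 1) scale COX1 was 1.86 higher in in vitro matured oocytes but differed from IV-D by -0.38 in NT-D and -0.80 in NT-LW 1-cell embryos. SPCS2 had 2.998 in oocytes, -1.77 in NT-D and -1.24 in NT-LW. RPL26L1 had 2.28, -1.92 and -1.49, and RAB6A 2.38, -1.83 and -1.94. Both 1-cell values of a gene share the IV-D 1-cell library.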

How the results depend on the processing

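With 1 library for each origin no spread between samples can be had, and fragment counts limit only low genes. No paired analysis was possible because each group has 1 library. Against 903 higher and 102 lower genes, a pseudocount of 0.1 gave 1435 higher, a summed FPKM of 1000000 gave 1098, median-ratio scaling 592 and 229, the trimmed mean of log ratios 466 and 368, and a difference over 2 gave 56 and 4. Without a minimum FPKM the numbers are the same by construction. More members higher than lower were found in 31 of 35 lists, in 18 with the trimmed mean and in 4 with a difference over 2. Spindle genes turned to an excess of lower members, -2 with median-ratio scaling and -4 with the trimmed mean. With the latter mRNA decay, fatty acid oxidation and apoptosis turned to -1, cytosolic ribosomal proteins and splicing factors to -2 and zinc finger proteins to -3. Of 360 named genes, 0 of those that passed the rule changed sign with another pseudocount, minimum FPKM, scaling or a larger difference. Sign changes of named genes that had not passed were not counted, and GC centring was not part of this count. With the trimmed mean 65 genes no longer passed, and with median-ratio scaling 40. Of genes higher in oocytes, those higher in NT-D 1-cell embryos went from 299 to 576 (pseudocount 0.1), 535 (summed FPKM set to 1000000) and 129 (median-ratio), in NT-LW from 141 to 299, 282 and 65, and in both from 125 to 266, 247 and 59. The genes called in oocytes changed too, and the shares for NT-D went from 33.1% (18.2% of all genes) to 40.1% (24.96%), 48.7% (30.1%) and 21.8% (7.78%), and for NT-LW from 15.6% (20.9%) to 20.8% (26.5%), 25.7% (34.0%) and 11.0% (12.1%). At the 2-cell stage 121 and 638 were higher. Genes lower in both went from 5 to 8, 3 and 14, and to 3 at the 2-cell stage. The scalings move every gene of a library by construction, and the cause of the other changes was not tested.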
